A study of Homo sapiens with 6 samples.

Results

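The genes described here are 40 human genes that act in mitosis, chosen by name as rows of the deposited expression table whose symbol matched the list, 40 of 30960 rows in all. They encode kinases and phosphatases of mitotic entry, the spindle assembly checkpoint, the anaphase-promoting complex and the separation of chromatids, the chromosomal passenger complex, the kinetochore, spindle microtubule proteins, cytokinesis factors, and proteins of chromosome structure. RNA was measured by mRNA sequencing in HEK293 cells, an established line from human embryonic kidney. The PKI group (3 libraries, A, B and C) was transfected with a plasmid for a GFP fusion of PKI1-24, and the inPKI group (3 libraries, A, B and C) with a GFP fusion of inPKI1-24, which the labels name as the control. Lipofectamine 3000 and 158 ng of plasmid per square centimetre were used in both groups, and RNA was taken after 48 h. PKI peptides are pseudosubstrate inhibitors of PKA, the kinase that cAMP activates. RNA came from bulk cultures, so a transcript that is lower in each cell and one that is made by fewer cells in mitosis cannot be told apart.

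Mitotic genes are transcribed in waves, most of them from late S phase to mitosis. Their promoters are held silent in G0 and G1 by the DREAM complex and switched on later by B-MYB and FOXM1, through cell cycle genes homology region (CHR) elements and CCAAT boxes near the start site. After transcription, CDK1 with cyclin B, PLK1 and the Aurora kinases drive cells into mitosis, the checkpoint waits for every kinetochore to bind microtubules, and the anaphase-promoting complex (APC/C) then triggers separase. Ki-67 and topoisomerase II alpha are widely used to mark cycling cells.

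The promoters below are shown because they carry these elements and belong to the genes with the smallest p on either side of 0 (MKI67 and CENPF above, PTTG1 below) and to CDC20 and PLK1, core regulators with differences between theirs. Each line gives the 110 bases before the RefSeq start site in GRCh38.p14, 5′ to 3′ on the gene's strand, and the capitals mark CHR elements (TTTGAA or TTTAAA) and CCAAT boxes (CCAAT) on either strand. The windows are chr10:128126424-128126533 (minus strand) for MKI67, chr1:214603085-214603194 (plus) for CENPF, chr5:160421745-160421854 (plus, the first of the gene's listed starts) for PTTG1, chr1:43358871-43358980 (plus) for CDC20 and chr16:23678779-23678888 (plus) for PLK1.
MKI67: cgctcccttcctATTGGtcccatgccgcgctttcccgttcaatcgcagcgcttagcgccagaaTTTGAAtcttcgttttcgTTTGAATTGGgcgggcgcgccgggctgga
CENPF: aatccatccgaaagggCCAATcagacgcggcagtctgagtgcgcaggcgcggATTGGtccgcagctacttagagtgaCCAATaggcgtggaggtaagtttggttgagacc
PTTG1: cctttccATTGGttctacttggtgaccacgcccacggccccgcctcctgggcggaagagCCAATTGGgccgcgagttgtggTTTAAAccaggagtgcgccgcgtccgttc
CDC20: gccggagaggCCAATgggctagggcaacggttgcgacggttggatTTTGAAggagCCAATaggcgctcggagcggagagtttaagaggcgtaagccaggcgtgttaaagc
PLK1: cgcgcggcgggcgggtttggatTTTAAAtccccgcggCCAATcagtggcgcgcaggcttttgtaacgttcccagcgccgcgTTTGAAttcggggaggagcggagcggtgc
In GENCODE 29 (GRCh38) the pairs of genes with the smallest p above and below 0 are MKI67 (ENSG00000148773.13, chr10:128096659-128126385, minus strand), CENPF (ENSG00000117724.12, chr1:214603195-214664588, plus strand), PTTG1 (ENSG00000164611.12, chr5:160421822-160428744, plus strand) and BIRC5 (ENSG00000089685.14, chr17:78214186-78225636, plus strand).
The MKI67 promoter holds 2 CHR elements, the second of which runs into a CCAAT box, while the CENPF window holds 3 CCAAT boxes and no CHR element. In PTTG1 a pair of overlapping CCAAT boxes lies upstream of a TTTAAA element.

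RefSeq promoters were at hand for 34 of the 40 genes, at 45 start sites. Within the 100 bases before the start, 42.2% of these 45 windows held a CHR element, against 8.24% of all 35116 promoters. A CCAAT box was in 51.1% of the mitotic windows and in 18.1% of all promoters. The core of the cAMP response element, TGACG, part of the sequence bound by the PKA target CREB, was in 17.8% of the mitotic windows and 11.7% of all promoters. Over the wider window from 250 bases before to 50 after the start, a CHR element was in 71.1% of the mitotic windows and 24.0% of all promoters, a CCAAT box in 64.4% of the mitotic windows and 34.6% of all promoters, and TGACG in 44.4% of the mitotic windows and 24.6% of all promoters. These are matches of letters on either strand and not measured sites, and start sites of 1 gene can share bases. The 18 genes with a CHR element in the 100 bases before the start had a median log2 difference of 0.019, PKI minus inPKI, with a range of -0.20 to 0.25. The 16 genes without one had a median of -0.042, with a range of -0.13 to 0.20, so the ranges overlapped over most of their width.

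Summed over the deposited genes, the reads recovered from the CPM were 17244715 to 23589438 per library, PKI C being the shallowest and PKI B the deepest. PKIA, the gene of PKI alpha, was at 43.2, 42.3 and 46.1 CPM (reads scaled to library size) in PKI A, B and C, against 9.05, 11.3 and 8.65 CPM in inPKI A, B and C, so the libraries separated by their labels (reads of plasmid and of the cells' own transcript cannot be told apart). Markers used here for HEK293 cells were all detected, the highest being vimentin at 560 to 652 CPM and the neurofilament gene NEFM at 118 to 136 CPM. The lowest were KRT8 at 7.55 to 9.42 CPM and PAX2 at 0.579 to 1.31 CPM, on both sides of the filter of 1 CPM. Of the markers of other cell types, the leukocyte gene CD3E and the fibroblast gene DCN were at 0 throughout, and the leukocyte gene PTPRC was at most at 0.0369 CPM. The endothelial markers summed to 0.0333 to 0.219 CPM in PKI and 0.182 to 0.312 CPM in inPKI. The summed keratinocyte markers KRT5, KRT14 and TP63 were 17.4, 16.9 and 14.9 CPM in PKI A, B and C, against 18.3, 14.9 and 39.3 CPM in inPKI A, B and C. The fibroblast markers summed to 3.19 to 3.46 CPM in PKI and 3.10 to 3.76 CPM in inPKI. Library inPKI C stood apart in the keratinocyte markers, and without it the median difference of the mitotic genes was -0.035 and none passed. The labels speak of triplicates and do not say whether these were separate cultures or days. The p-values therefore set the difference between groups against the spread of 3 libraries within a group, and that spread may be technical variation.

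All 40 mitotic genes were expressed well above the filter, at a mean of 17.2 to 381 CPM with a median of 105 CPM, against a median of 21.3 CPM over all 14275 genes tested. The fewest reads of any of them in a library were 360 (CENPA in PKI C) and the most were 12100 (TOP2A in PKI B). Their summed level was 4739, 4830 and 4581 CPM in PKI A, B and C, against 4697, 4680 and 4630 CPM in inPKI A, B and C. The highest and the lowest sum were both in the PKI group, and the groups overlapped. Per kilobase of the longest coding transcript, the highest levels were those of CDC20 (97.0 CPM per kb), the APC/C-specific ubiquitin-conjugating enzyme UBE2C (94.1), AURKB (71.0) and PLK1 (68.2), and the lowest were those of CENPI (7.71), CDC25C (9.08) and CENPE (9.28).

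None of the 40 genes passed the test between PKI and inPKI. With limma on log2(CPM + 1) the smallest adjusted p was 0.157, for MKI67, and over all 14275 genes tested 18 passed (0.126%), 14 higher in PKI (0.0981%) and 4 lower (0.028%). Their differences ran from -0.20 (CENPA) to 0.25 (MKI67) on the log2 scale, which is 0.873 to 1.19 times the inPKI level, with standard errors of 0.051 to 0.095. The outermost bounds of their 95% intervals were -0.40 and 0.40, so a doubling or halving lay outside the interval of each gene, taken one at a time. For 27 of the 40 the whole interval lay within 0.25 of 0. The median difference was -0.018 over the 40 genes and -0.0074 over all tested genes, with 14 of the 40 above 0 and 26 below, against 6771 above and 7504 below in all.

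At an unadjusted p under 0.05 limma gave 7 of the 40, where 13.7% of all tested genes reach that level. MKI67, CENPF and ASPM were higher in PKI, where 7.53% of all genes are, and PTTG1, BIRC5, CDCA8 and AURKB were lower, where 6.16% are. The libraries of the groups did not overlap in 7 of the 40 genes (19.7% of all tested genes): MKI67, CENPF, ASPM and SMC4 higher in PKI (10.9% of all genes), and PTTG1, BIRC5 and AURKB lower (8.88%). By edgeR on reads recovered from the CPM none of the 40 passed (0.0771% of all genes did). By DESeq2 on those reads 3 passed, where 1.77% of all genes did: MKI67 and CENPF, higher in PKI (adjusted p = 0.00447 and 0.0187), and BIRC5, lower in PKI (adjusted p = 0.0477). DESeq2 gave no adjusted p for CDC25C, CENPA, CENPK and SPC25, so these could not pass. The 1.77% is taken over all tested genes, with those that had no adjusted p counted as not passing. The share among genes with an adjusted p is therefore higher. In limma without PKI B, where 0.799% of all genes passed, MKI67 passed. None of the 40 passed in the other limma fits. The share of all genes called there was 0.112% and 0.133% with pseudocounts of 0.25 and 5, 0.0138% with no filter on low values and 0.216% with a 5 CPM filter. It was 0.0911% with median-ratio scaling, 0.0771% with an equal sum, 0.869% with a replicate block and 0.028% without a mean-variance trend. Without PKI A it was 0.259%, without PKI C 0.322%, and without inPKI A, B and C 0.0771%, 0.063% and 0.0981%.

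**Figure D1:**
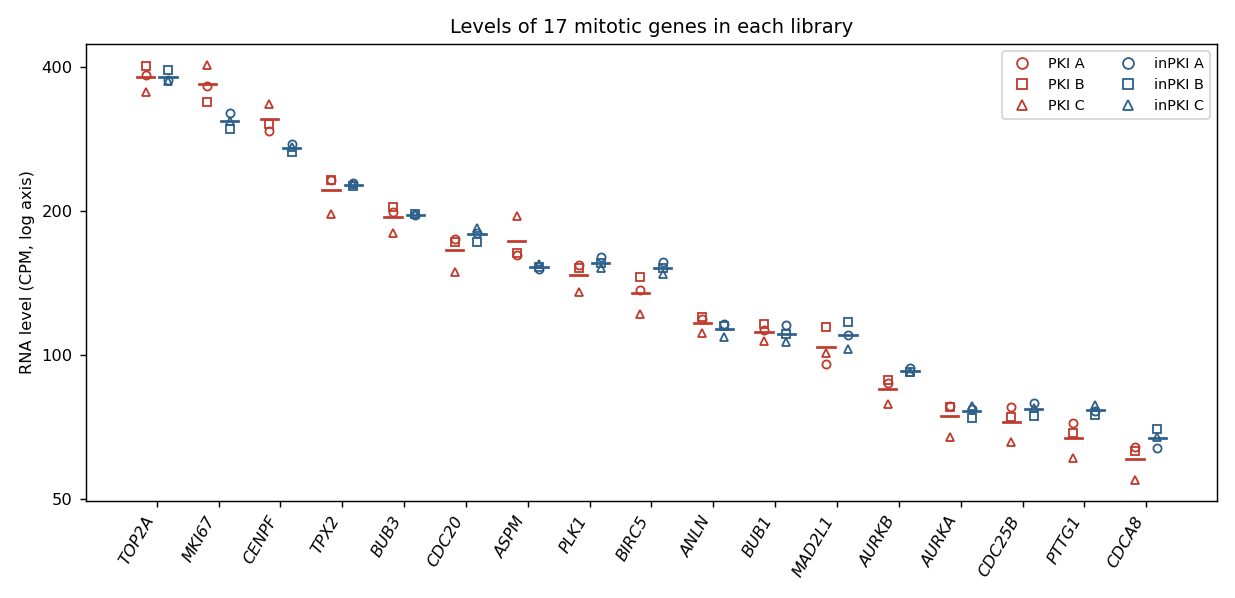
RNA level (CPM, log axis) of 17 mitotic genes in each library, ordered by mean level, with PKI libraries in red on the left and inPKI libraries in blue on the right of each gene. Horizontal bars are group means of 3 libraries; TOP2A has means of 381 CPM in PKI and 381 CPM in inPKI, while the 3 PKI libraries of MKI67 lie above the 3 inPKI libraries.

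**Figure D2:**
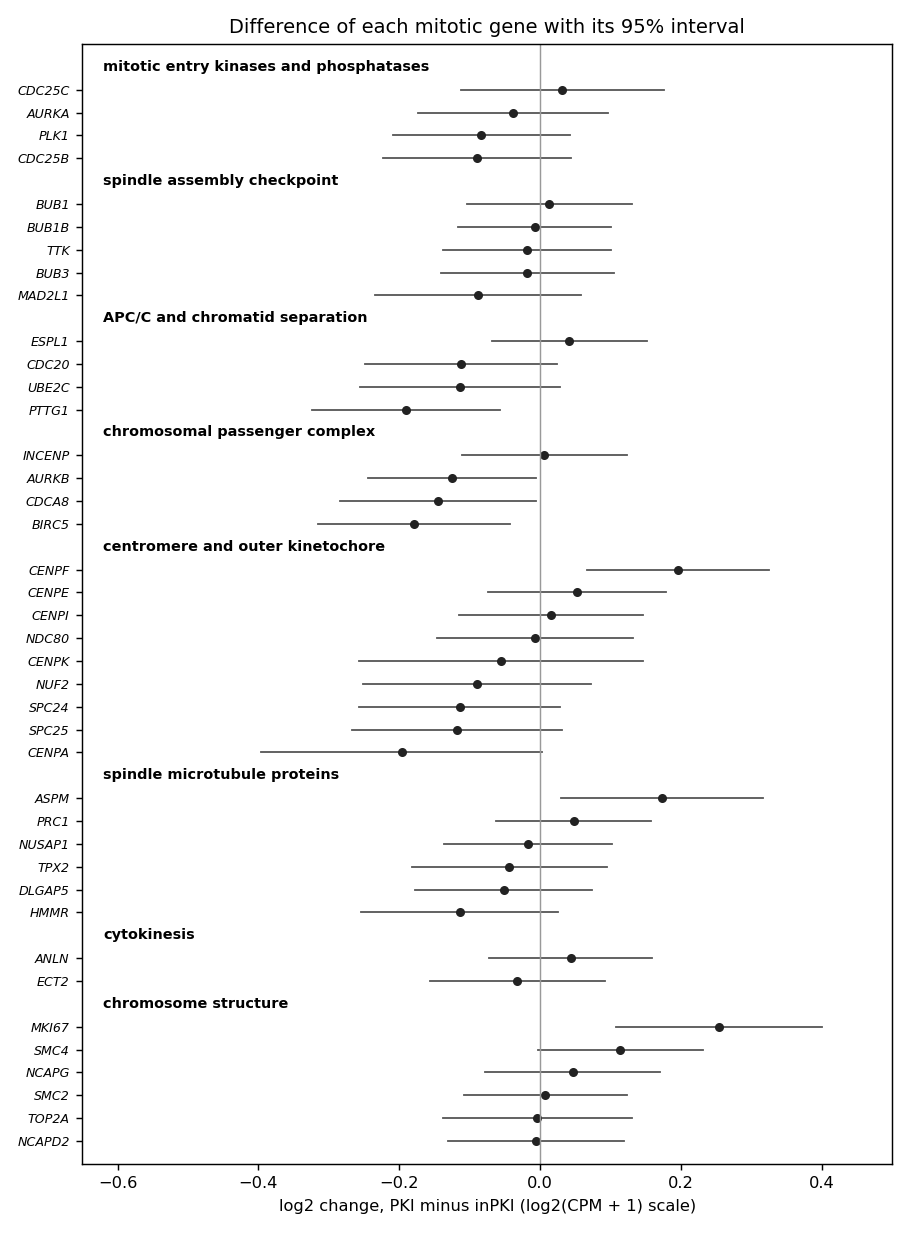
Log2 difference, PKI minus inPKI, of each of the 40 genes (points) with its 95% interval from limma (lines), grouped by role. The points lie between -0.20 and 0.25, and the intervals of 33 genes include 0.

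Among the kinases and phosphatases of mitotic entry, none of the 4 genes passed and their differences lay between -0.090 and 0.031. PLK1, the polo-like kinase that acts from entry to cytokinesis, measured 154, 152 and 136 CPM in PKI A, B and C, against 161, 156 and 152 CPM in inPKI A, B and C. Its difference was -0.084 ± 0.059 (SE), with a 95% interval of -0.21 to 0.042 and a limma adjusted p of 0.546. The PKI C library was the low one, and PKI A and B lay among the inPKI values. AURKA, the centrosome and spindle kinase, measured 78.6, 78.1 and 67.4 CPM in PKI, against 77.2, 74.0 and 78.5 CPM in inPKI, a difference of -0.039 ± 0.063 (limma adjusted p = 0.817). CDC25B, a phosphatase that activates cyclin-dependent kinases, measured 77.8, 74.3 and 66.0 CPM in PKI, against 79.3, 74.8 and 77.6 CPM in inPKI. In AURKA as in CDC25B the groups overlapped and PKI C was the lowest library. Its relative CDC25C had the difference nearest to 0 among the 4, at 0.031 ± 0.068, with 19.5 ± 0.748 CPM in PKI and 19.1 ± 0.236 CPM in inPKI (SD, n = 3 each).

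In the spindle assembly checkpoint, which holds cells before anaphase until kinetochores are attached, none of the 5 genes passed and 4 had a difference between -0.019 and 0.013. BUB1, the kinase that recruits other checkpoint proteins to kinetochores, measured 113, 116 and 107 CPM in PKI A, B and C, against 116, 111 and 106 CPM in inPKI A, B and C. BUB3, its partner, measured 199, 204 and 180 CPM in PKI, against 196, 197 and 197 CPM in inPKI. The groups overlapped fully in BUB1, while in BUB3 the PKI libraries spread on both sides of a tight inPKI group. BUB1B, which encodes the APC/C inhibitor BUBR1, and TTK, the MPS1 kinase at the top of the checkpoint, had differences of -0.0080 ± 0.051 and -0.018 ± 0.056 (SE). MAD2L1, which encodes the MAD2 protein that captures CDC20, measured 96.1, 115 and 101 CPM in PKI and 110, 118 and 103 CPM in inPKI. Its difference of -0.088 ± 0.069 was the lowest of the 5 (limma adjusted p = 0.587), and it varied within the groups more than the others did.

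Downstream of the checkpoint, none of the 4 genes of the APC/C and of chromatid separation passed, and 3 of them were below 0. CDC20, the activator of the APC/C, measured 175, 173 and 150 CPM in PKI A, B and C, against 180, 172 and 184 CPM in inPKI A, B and C. Its difference was -0.11 ± 0.064 (95% interval -0.25 to 0.024, limma adjusted p = 0.451), and it overlapped between the groups. UBE2C had a difference of -0.11 ± 0.066, with 82.7 ± 7.49 CPM in PKI and 89.4 ± 4.28 CPM in inPKI (SD, n = 3 each). Without PKI C the differences were -0.040 for CDC20 and -0.038 for UBE2C. PTTG1, which encodes securin, the inhibitor of separase, measured 72.2, 68.7 and 61.0 CPM in PKI, against 76.4, 75.1 and 78.9 CPM in inPKI. The 3 PKI libraries lay below the 3 inPKI libraries, with a difference of -0.19 ± 0.063 and a limma adjusted p of 0.222, and without PKI C the difference was -0.12. ESPL1, which encodes separase itself, differed by 0.041 ± 0.051, with means of 135 CPM in PKI and 131 CPM in inPKI.

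The chromosomal passenger complex, which corrects faulty kinetochore attachments and later acts at the midzone, held 3 of the 4 genes with the lowest p among those below 0, although none passed. BIRC5, which encodes survivin, measured 137, 146 and 122 CPM in PKI A, B and C, against 157, 152 and 148 CPM in inPKI A, B and C, a difference of -0.18 ± 0.064 (limma adjusted p = 0.252). AURKB, the kinase of the complex, measured 87.7, 88.8 and 79.1 CPM in PKI, against 94.1, 92.4 and 92.2 CPM in inPKI, a difference of -0.13 ± 0.056 (limma adjusted p = 0.343). In BIRC5 and AURKB every PKI library lay below every inPKI library. CDCA8, which encodes borealin, measured 64.3, 63.1 and 54.9 CPM in PKI, against 64.0, 70.0 and 67.4 CPM in inPKI, and PKI A overlapped inPKI A. Its difference was -0.15 ± 0.065 (limma adjusted p = 0.346). INCENP, the scaffold of the same complex, differed by 0.0059 ± 0.055, with means of 112 CPM in PKI and 111 CPM in inPKI. The RNA of BIRC5, CDCA8 and AURKB measured 0.88 to 0.92 of its inPKI level. Without PKI C the differences were -0.11 for BIRC5, -0.074 for AURKB and -0.075 for CDCA8.

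At the centromere and outer kinetochore none of the 9 genes passed, and the extremes were CENPA and CENPF. CENPF, a large coiled-coil protein of the outer kinetochore, measured 294, 305 and 335 CPM in PKI A, B and C, against 276, 266 and 272 CPM in inPKI A, B and C. All 3 PKI libraries were above all 3 inPKI libraries, PKI C the most, with a difference of 0.20 ± 0.060 and a limma adjusted p of 0.199. CENPA, the histone H3 variant that marks centromeres, measured 13.7, 18.5 and 15.7 CPM in PKI, against 18.1, 19.0 and 17.9 CPM in inPKI, and PKI B overlapped the inPKI group. Its difference was -0.20 ± 0.093 (limma adjusted p = 0.369), and it was -0.096 without PKI A and -0.30 without PKI B. The kinesin motor CENPE differed by 0.052 ± 0.059, and the inner kinetochore genes CENPI and CENPK by 0.016 ± 0.061 and -0.056 ± 0.095. The 4 subunits of the NDC80 complex, the microtubule coupler of the kinetochore, had differences of -0.0076 for NDC80, -0.089 for NUF2, -0.11 for SPC24 and -0.12 for SPC25. NDC80 was above 0 without PKI C (0.019), by edgeR (0.0022), by DESeq2 (0.0018) and with the length trend removed (0.034).

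Of the 6 spindle microtubule proteins none passed, and ASPM, a large protein of the spindle poles known from primary microcephaly, had the smallest p. It measured 162, 163 and 195 CPM in PKI A, B and C, against 151, 153 and 155 CPM in inPKI A, B and C, a difference of 0.17 ± 0.067 (limma adjusted p = 0.286). The groups did not overlap, but PKI A and B lay close to inPKI and most of the difference was in PKI C. Without PKI C it was 0.085. TPX2, the activator of AURKA on spindle microtubules, measured 233, 233 and 198 CPM in PKI, against 229, 226 and 227 CPM in inPKI, with PKI C low. The other 4, PRC1, NUSAP1, DLGAP5 and HMMR, had differences of 0.047, -0.017, -0.052 and -0.11. For cytokinesis, the ring scaffold anillin (ANLN) measured 119, 120 and 111 CPM in PKI, against 116, 115 and 109 CPM in inPKI, and the RHOA activator gene ECT2 differed by -0.032 ± 0.058.

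The 6 genes of chromosome structure held the highest levels and the largest difference. MKI67 encodes the Ki-67 protein that coats mitotic chromosomes and is used as a marker of cycling cells. It measured 365, 338 and 405 CPM in PKI A, B and C, against 320, 297 and 309 CPM in inPKI A, B and C. Each PKI library was above each inPKI library, and PKI C was the highest, with a difference of 0.25 ± 0.068, a 95% interval of 0.11 to 0.40 and a limma adjusted p of 0.157. The adjusted p fell below 0.05 without PKI B (0.0441) and by DESeq2 (0.00447), and the alternatives spanned 0.00447 to 0.545. TOP2A, the topoisomerase that untangles chromosomes and another common marker of cycling cells, measured 385, 403 and 354 CPM in PKI, against 376, 394 and 374 CPM in inPKI. Its difference was -0.0041 ± 0.063, with a 95% interval of -0.14 to 0.13, and the groups overlapped. The condensin genes SMC4, NCAPG, SMC2 and NCAPD2 differed by 0.11, 0.046, 0.0072 and -0.0058. SMC4 measured 236, 240 and 256 CPM in PKI, against 227, 221 and 227 CPM in inPKI, without overlap (limma adjusted p = 0.376).

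MKI67 and TOP2A, both markers of cycling cells, gave differences of 0.25 and -0.0041. The order of the 40 differences went with the length of the longest coding transcript. MKI67, ASPM, CENPF and CENPE have the longest coding transcripts of the 40, at 12678, 10887, 10307 and 8612 bases, and their differences were 0.25, 0.17, 0.20 and 0.052. The value of CENPE was 0.0015 without PKI C and -0.038 with the length trend removed. The 5 genes with transcripts under 1500 bases, UBE2C, PTTG1, AURKB, SPC25 and CENPA, were all below 0, at -0.11 to -0.20. Over the 40 genes Spearman's rho between difference and longest transcript length was 0.75 (Pearson's r with log2 length 0.79). With the median coding transcript in its place rho was 0.33, so the order depends on how length is taken. These genes share the same 6 libraries and are no independent points, and longer transcripts among them also had higher CPM (rho 0.63).

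The same order was present in the whole table, with rho 0.45 over 14242 tested genes that have a length. With the median coding transcript that rho was 0.32. The median difference of all tested genes was -0.11 for transcripts under 1500 bases (n = 2010), -0.044 from 1500 to 3000 (n = 4441), -0.00035 from 3000 to 5000 (n = 4076), 0.045 from 5000 to 8000 (n = 2543) and 0.12 from 8000 on (n = 1172). The medians of the mitotic genes in the same classes were -0.13 (5 genes), -0.070 (12), -0.0010 (12), -0.0041 (7) and 0.18 (4). With the length trend removed from each library before the fit, the 40 differences ran from -0.15 to 0.11 and none passed (smallest adjusted p 0.322, with 0.0632% of all genes called). MKI67 was then at 0.11, CENPF at 0.079, ASPM at 0.049, PTTG1 at -0.088, AURKB at -0.035 and BIRC5 at -0.15. BIRC5, CDCA8 and MKI67 were the 3 left at an unadjusted p under 0.05 (9.98% of all genes). The trend runs with the groups, so this fit can also take away a difference between them.

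**Figure D3:**
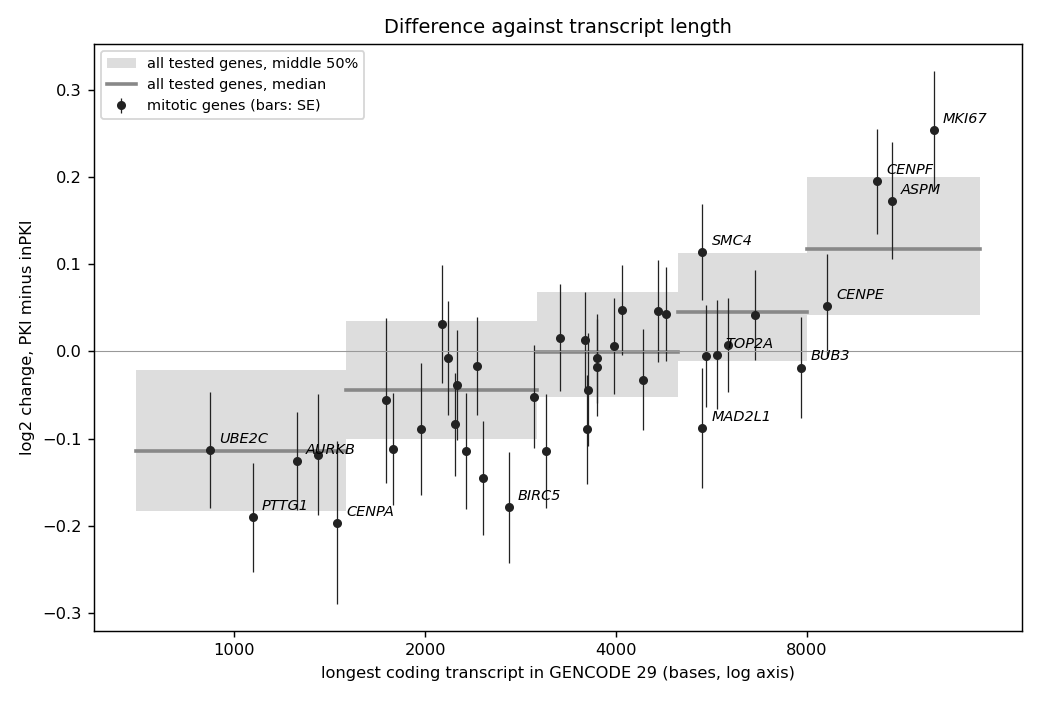
Log2 difference, PKI minus inPKI, of the 40 genes (points, bars are SE) against the longest coding transcript in bases (log axis). Grey lines and boxes give the median and the middle 50% of all tested genes in 5 length classes, from -0.11 for the shortest to 0.12 for the longest.

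The order was also described library by library. Against the mean of the inPKI libraries, rho with length over the 40 genes was 0.62 in PKI A, 0.66 in PKI B and 0.65 in PKI C. Each inPKI library set against the other inPKI libraries gave 0.067, -0.021 and 0.078 in A, B and C. All 3 PKI values share the inPKI mean and so are not separate showings of the order, and the inPKI values rest on another mean, of the remaining inPKI libraries. The PKI libraries differed in height: the median of the 40 genes against the inPKI mean was -0.0054 in PKI A, 0.041 in PKI B and -0.11 in PKI C, where all tested genes had medians of 0.0071, 0.025 and -0.050. PKI C held the lowest value of the 6 libraries in 24 of the 40 genes and the highest in 5. Without PKI C 24 genes were above 0 and 16 below, with a median of 0.015, against 14, 26 and -0.018 with all libraries. PKI C is the shallowest library and has the lowest CPM sum (754299, against 773801 to 785007 in the other 5), and the part of this in its values was not tested.

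**Figure D4:**
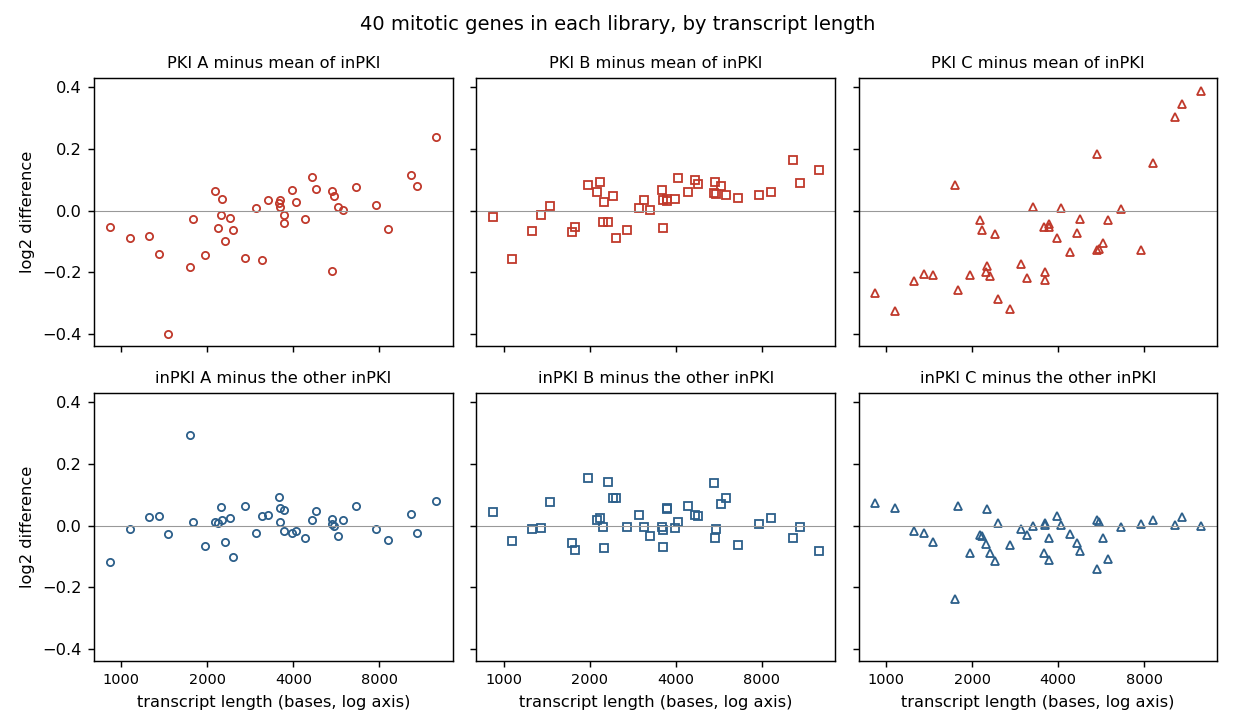
Log2 difference of each of the 40 genes in each library against transcript length in bases (log axis); PKI libraries (top) minus the mean of inPKI, inPKI libraries (bottom) minus the mean of the other inPKI libraries. Spearman's rho was 0.62 to 0.66 in the 3 PKI panels, which share the inPKI mean, and -0.021 to 0.078 in the inPKI panels.

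Other mitotic genes, 115 in 5 lists made from textbook knowledge, gave 0 past the threshold in limma in either direction, with a median of -0.021 and 16 genes (13.9%) at an unadjusted p under 0.05, against 13.7% of all tested genes. Among 17 entry regulators and G2/M transcription factors, the smallest p were those of the cyclin-dependent kinase partners CKS2 and CKS1B and of cyclin B1 (CCNB1). CKS2 measured 74.8 ± 6.92 CPM in PKI and 85.4 ± 1.74 CPM in inPKI, and CCNB1 141 ± 13.7 CPM in PKI and 154 ± 4.18 CPM in inPKI (SD, n = 3 each), with limma adjusted p of 0.222 and 0.391. Among 32 other checkpoint and kinetochore genes, the small histone-fold gene CENPW (-0.24 ± 0.071) and the MIS12 complex gene NSL1 (-0.21 ± 0.061) were lower in value, and KNTC1, which encodes the large checkpoint protein ROD, was higher (0.18 ± 0.063). Their limma adjusted p were 0.176, 0.176 and 0.248.

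Among 19 APC/C and separation genes the 3 smallest p were those of the APC/C subunits ANAPC15 (-0.20), ANAPC16 (-0.18) and CDC26 (-0.17), with limma adjusted p from 0.248 to 0.339. Of 18 condensin and cohesin genes, 11 were above 0. The cohesin loader NIPBL measured 79.6 ± 2.22 CPM in PKI and 69.3 ± 3.37 CPM in inPKI (SD, n = 3 each), a difference of 0.20 ± 0.055 (limma adjusted p = 0.161), and the cohesin release factor WAPL differed by 0.11. Among 29 kinesin, spindle and cytokinesis genes the smallest p were those of the centrosome genes PCNT (0.18) and CEP192 (0.14) and the citron kinase gene CIT (0.12). The difference also went with length here, with rho 0.65 over the 115 genes for the longest coding transcript and 0.44 for the median one: CKS2, CENPW and CDC26 have transcripts of 613, 750 and 872 bases, and NIPBL and PCNT of 10435 and 10560 bases. NSL1 and ANAPC16, with transcripts of 2317 and 3567 bases, were about as low as the short ones.

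The authors' deposited table of their own comparison held an adjusted p for each of the 40 genes, and none was under 0.05 (smallest 0.999944). Its log2 fold change runs as inPKI over PKI against the CPM and is given here with the sign turned. In the authors' deposited table it was 0.27 for MKI67 (SE 0.29), 0.21 for CENPF (SE 0.30), -0.17 for BIRC5 (SE 0.17) and -0.18 for PTTG1 (SE 0.13), so the directions were those above with larger errors. For 36 of the 40 genes the turned sign was that of limma. The authors' deposited table gives a mean level above 0 to 2069 genes that are at 0 in all 6 libraries. Which libraries and counts that table was made from was not tested.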

How the data were processed

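The authors deposited a table of CPM for 30960 genes and 6 libraries, whose name points to RSEM and TMM scaling. Per the submitters' processing notes the build was hg19, and the tools included DESeq2 1.20.0, RSEM 1.3.0, STAR 2.5.2b and cutadapt 1.14, without their roles. The authors' deposited comparison holds, per the file headers, a mean signal, a log2 fold change and its error, a test score, raw and adjusted p-values and a signed fold change. In all 30960 genes the sign of that fold change is opposite to the sign of the log2 value.

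All deposited CPM values (100%, tolerance 0.01 reads) were whole multiples of the smallest value in their column, and the reads were recovered by that division. With 1 read worth 0.0333 to 0.0437 CPM, intervals cover counting and library spread only; the recovered reads may be rounded estimates.

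Differences are on the log2(CPM + 1) scale, which makes them too small for low genes. Tests covered genes with at least 1 CPM in at least 3 libraries (14275). limma 3.58.1 in R 4.3.3 (mean-variance trend, 2-sided, Benjamini-Hochberg over all genes tested, threshold 0.05) gave PKI minus inPKI with moderated SE. The fits were also run on simulated data that held no length trend and no shift of a single library, and the outcome is not reported here. With 3 libraries against 3 an exact permutation test cannot go below 0.1.

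Positions of promoters come from RefSeq on GRCh38.p14. Transcript lengths are those of the longest coding transcript in GENCODE 29 on GRCh38, matched by gene identifier for 30795 genes and missing for 165. Levels per kilobase use that length and not the isoform the cells express.

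Alternatives were pseudocounts of 0.25 and 5, no filter and a 5 CPM filter, median-ratio and equal-sum scaling, a replicate block, limma without a trend, edgeR 4.0.16, DESeq2 1.42.0, removal of a lowess length trend (span 0.3), and leaving out each library. The median transcript length was added after seeing the data.

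Every gene of the list is accounted for. Values in each library are given for genes with an unadjusted p under 0.05, for the smallest p and highest level of each role, and for 8 core genes. SMC4, CENPA and other single values outside that rule were chosen after they were seen. Members and lists were chosen with earlier results of these data known. Figures were drawn with matplotlib 3.10.9.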

Additional observations from a re-analysis of the deposited data

How the results depend on the processing

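None of the 40 genes was called in the reported fit, in limma under any of the pseudocounts, filters, scalings and the length correction, or by edgeR. DESeq2 called 3 and limma without PKI B called 1 (MKI67), so leaving out 1 library gave 0 to 1. Over all genes the 18 calls became 4 with no filter on low values, 4 without a trend, 11 with an equal sum, 11 by edgeR, 9 with the length trend removed, 253 by DESeq2, 124 with a replicate block and 9 to 114 with 1 library left out (leaving out PKI A gave 37, PKI B 114, PKI C 46, inPKI A 11 and inPKI B 9). With the replicate block the smallest adjusted p of the 40 genes was 0.0536 (MKI67), and none passed. Libraries of the same letter deviated together with correlations of 0.014 to 0.028. Each was the best of its PKI library, a hint from the data and not the design, and letters were not taken as pairs. The cause of these shifts in counts was not tested.

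The median of the 40 genes was -0.018 in the reported fit. Under the alternatives it ran from -0.052 (without PKI B) to 0.015 (without PKI C), the only one that changed its sign. Each move was less than the SD of the PKI libraries (0.079), but that SD is larger than the median itself and so is a wide limit. Of 289 values of 17 genes over 17 alternatives, 274 kept direction and side of the threshold, 4 passed it and 11 changed sign. TOP2A was 0.0055 with an equal sum, 0.0046 by edgeR, 0.0044 by DESeq2, and -0.046 to 0.046 with 1 library left out (highest without PKI C, and 0.020 without inPKI B). AURKA was 0.00072 with the length trend removed and -0.076 to 0.032 with 1 library left out. BUB1 ranged so from -0.016 (without inPKI C; -0.014 without PKI B) to 0.046, BUB3 from -0.054 to 0.036 and TPX2 from -0.083 to 0.034, the last 2 highest without PKI C.

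The Spearman correlation between difference and transcript length over the 40 genes was 0.67 to 0.75 with 1 library left out and 0.24 with the length trend removed. That fit takes away the trend over all tested genes by construction, and 0.24 is what was left in the 40. It was 0.33 with the median in place of the longest coding transcript (over all genes 0.32 in place of 0.45), so its size depends on how length is taken. The SE of 0.051 to 0.095 limits what 3 libraries a group can show.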

Other observations

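The genes of an earlier stage of the cell cycle, from G1 to S phase, were described in the same way. None of the 20 genes on that list passed in limma, by the adjusted p (0.126% of all tested genes) or at an unadjusted p under 0.05 (13.7% of all tested genes), and 19 of the 20 had a difference below 0, with a median of -0.032 and a range of -0.12 to 0.0044. Counts over the table as a whole were 7504 below 0 of 14275. PCNA, the sliding clamp of DNA polymerase, measured 205 ± 17.5 CPM in PKI and 222 ± 11.2 CPM in inPKI (SD, n = 3 each), with a limma adjusted p of 0.445. The replication factor gene GINS2 measured 61.1 ± 3.09 CPM in PKI and 64.0 ± 2.57 CPM in inPKI, and the cyclin gene CCNE1 21.2 ± 0.641 CPM in PKI and 22.4 ± 1.31 CPM in inPKI (SD, n = 3 each). PCNA, CCNE1 and GINS2 have transcripts of 1359, 2043 and 2673 bases. Of all tested genes, 22.2% were above 0 under 1500 bases and 33.9% from 1500 to 3000. In PKI C all tested genes had a median of -0.050 against the inPKI mean. The part of length and of PKI C in the 20 differences was not tested.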
